A study of Danio rerio with 23 samples.

Results

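The genes gsc, chrd, nog1 and admp are expressed in or around the dorsal organizer of the zebrafish gastrula, and all 4 were found by their names among the 31743 gene rows that the 23 libraries share. The organizer is the region of the dorsal embryonic margin that patterns the tissue around it. It secretes proteins that bind bone morphogenetic proteins (BMPs) outside the cell, so that BMP signalling stays low dorsally and high ventrally. gsc encodes Goosecoid, a homeobox transcriptional repressor of the organizer that is later found in the prechordal plate, the mesendoderm under the future forebrain. chrd encodes Chordin, the best known secreted BMP antagonist of the organizer, which Tolloid proteases cut. nog1 encodes Noggin1, another secreted BMP antagonist. admp encodes a BMP family ligand that is made dorsally, on the side where BMP signalling is low. Maternal Wnt/β-catenin activity induces the organizer before gastrulation, whereas zygotic Wnt8 from the margin acts later against it and posteriorizes the neural plate.

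The study asked how Wnt signalling patterns the neural plate over successive phases, with RNA of whole zebrafish embryos as the readout. The groups were hs:wnt8a/+ embryos at 7.5 hpf (hours post fertilization) and their siblings, hs:wnt8a/+ embryos at 5.5 hpf and their siblings, hs:dkk1b/+ embryos at 7.5 hpf and their siblings, and hs:dkk1b/+ embryos at 5.5 hpf and their siblings. hs:wnt8a makes the Wnt ligand Wnt8a and hs:dkk1b makes the secreted Wnt inhibitor Dkk1b, each from a heat-shock promoter that acts throughout the embryo. Carriers of 1 transgene copy were crossed to wild-type fish, transgenic embryos were recognised by fluorescence, and the genotypically wild-type siblings received the same heat shock. That heat shock was 39 °C for 30 minutes in the hs:wnt8a cross and 37 °C for 60 minutes in the hs:dkk1b cross, in groups of 10 embryos, and recovery was at 29 °C. No embryo was left without heat shock, so a response to heat that all groups share cannot be read from these libraries. The sample titles give 5.5 and 7.5 hpf where another field gives 5 and 7 hpf, and the titles are followed here. Each group had 3 libraries except hs:wnt8a/+ at 5.5 hpf, which had 2. Embryos came from several mating pairs, and whether each library of a group stands for its own clutch is not in the labels. Each p-value here therefore reflects only how far the sequenced libraries spread, some of which may be technical.

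Libraries held between 13845788 and 20467185 counts, with a median of 16829144, and 22615 to 24244 genes had at least 1 count. dkk1b had 19060, 2329 and 3500 CPM (read counts scaled to the library total) in hs:dkk1b/+ embryos at 7.5 hpf, against a mean of 38.8 CPM in their siblings. At 5.5 hpf it had 3952, 2872 and 2292 CPM in hs:dkk1b/+ embryos, against a mean of 30.8 CPM in siblings. Library 1 at 7.5 hpf was far above the other transgenic libraries of either time, which held 2292 to 3952 CPM. The files hold 2 identifiers named wnt8a, and the one that followed the transgene, wnt8a_1, had 3647, 4218 and 3092 CPM in hs:wnt8a/+ embryos at 7.5 hpf, against 180, 2.33 and 14.8 CPM in their siblings. At 5.5 hpf wnt8a_1 had 3447 and 2664 CPM in hs:wnt8a/+ embryos, against 588, 392 and 722 CPM in their siblings, so siblings held on average 18.6% of the transgenic level at 5.5 hpf and 1.80% at 7.5 hpf. In the hs:dkk1b cross the same identifier averaged 6.08 and 4.96 CPM in siblings. Whether transgenic embryos were among those sorted as siblings of hs:wnt8a cannot be told from the files, so each hs:wnt8a difference, at 5.5 hpf above all, compares transgenic embryos with siblings that hold some of this RNA. Its part in those differences was not tested. The libraries numbered 1 of the hs:dkk1b cross at 7.5 hpf stood apart in the heat-shock gene hsp70l, with 2654 CPM in transgenic embryos and 1228 CPM in siblings, against 40.7 to 78.0 CPM in the other 4 libraries of that time. For the 4 organizer genes, differences from siblings at that time are therefore also given without both. Values of the other listed genes are given only with them. In whole embryos, fewer cells that express a gene and less RNA of it per cell cannot be told apart.

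All 4 genes were well above the detection limit in every library. Raw counts ranged from 101 to 713 for gsc (ENSDARG00000059073), from 4113 to 14294 for chrd (ENSDARG00000006110), from 228 to 839 for nog1 (ENSDARG00000058819) and from 513 to 2347 for admp (ENSDARG00000025372). Levels of different genes were compared in TPM, which scale counts by gene length as well as by library total. By that measure chrd was the most abundant of the 4 in every library, with a median of 268.9 TPM and a range of 139 to 449 TPM. admp had a median of 47.8 TPM (25.9 to 116.5), gsc 34.1 TPM (8.05 to 63.4) and nog1 22.2 TPM (16.4 to 44.1). Among the 19504 genes that passed the filter on low counts, the mean TPM over all libraries lay at the 97th percentile for chrd. It lay at the 85.2nd for admp, the 77.5th for gsc and the 72.9th for nog1. The ratio of the largest to the smallest group mean was 4.70 for gsc, 3.43 for admp, 3.01 for chrd and 2.21 for nog1 in CPM. Every CPM value printed here is TMM-scaled.

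**Figure D1:**
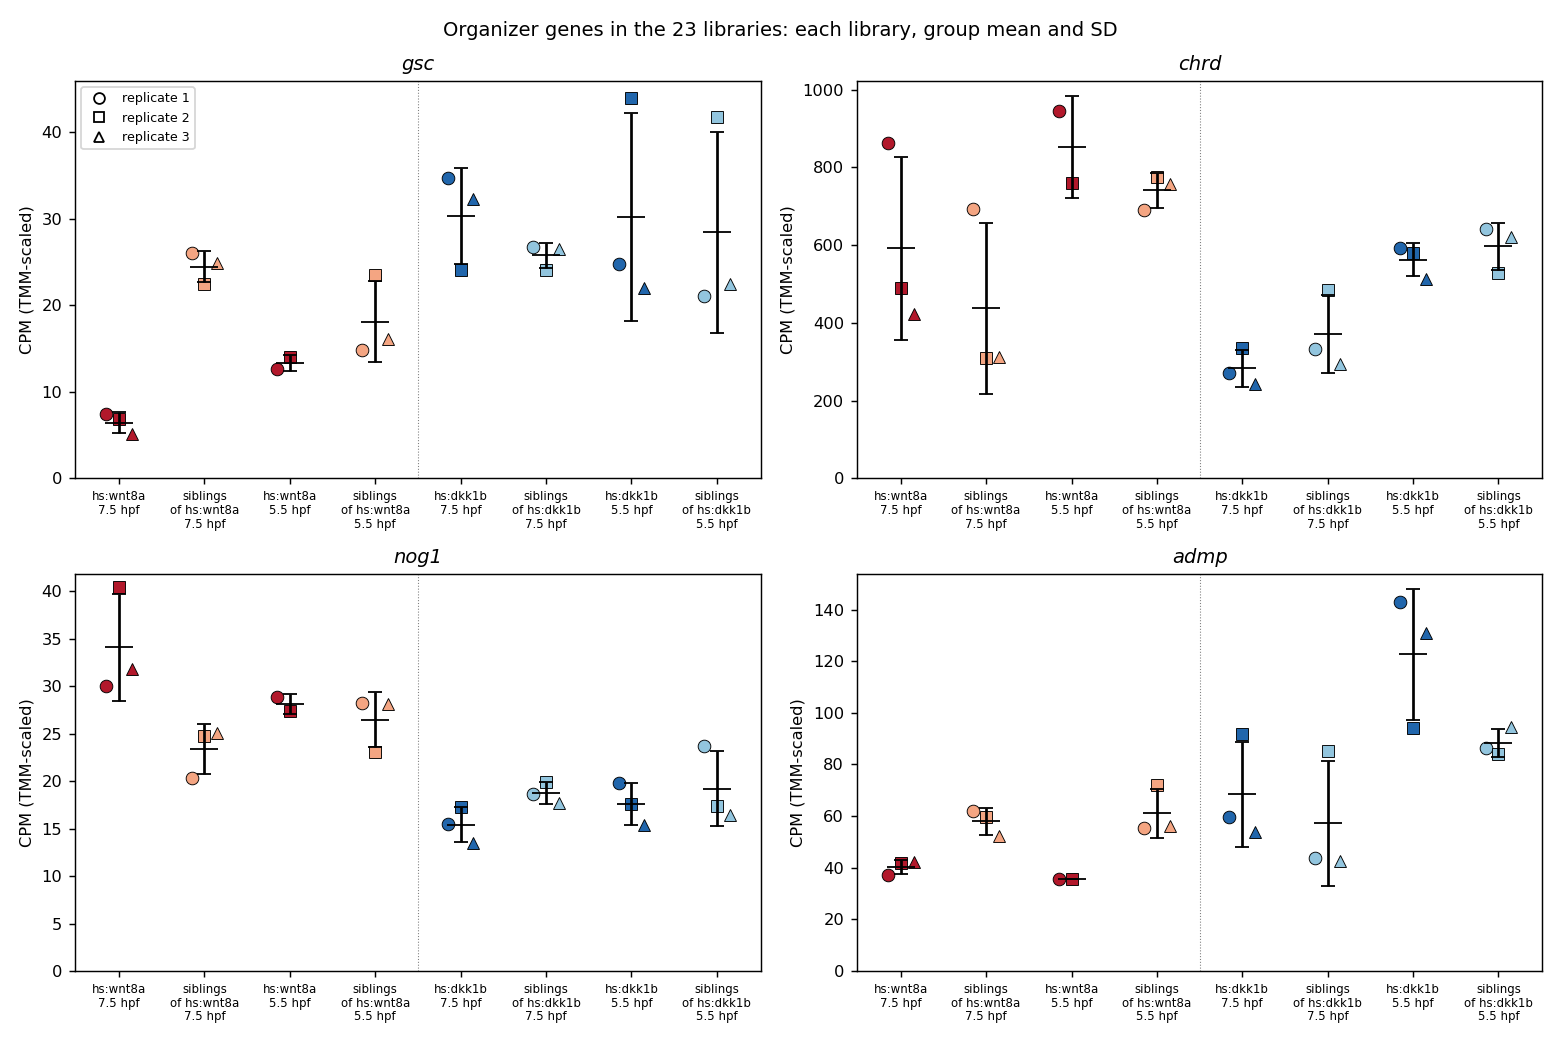
TMM-scaled CPM (y axis, linear) of gsc, chrd, nog1 and admp in each library, by group along the x axis, each transgenic group left of its siblings. Points are libraries, marker shapes give the replicate number, and bars are the group mean ± SD. gsc is lowest in hs:wnt8a/+ embryos at 7.5 hpf, where the 3 libraries lie between 5.12 and 7.42 CPM, and nog1 is highest there.

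The 8 groups were ordered differently for each gene. gsc was highest in hs:dkk1b/+ embryos at 7.5 hpf (30.3 ± 5.59 CPM, SD, n = 3), and each group overlapped the next down the order as far as the siblings of hs:wnt8a at 5.5 hpf. hs:wnt8a/+ embryos at 5.5 hpf (13.3 ± 0.92 CPM, n = 2) lay below all of these, and hs:wnt8a/+ embryos at 7.5 hpf (6.45 ± 1.19 CPM, n = 3) lay below them in turn. nog1 ran almost the opposite way. It was highest in hs:wnt8a/+ embryos at 7.5 hpf (34.1 ± 5.62 CPM, n = 3), which lay above all other groups, and lowest in hs:dkk1b/+ embryos at 7.5 hpf (15.4 ± 1.87 CPM, n = 3). admp was highest in hs:dkk1b/+ embryos at 5.5 hpf (122.6 ± 25.5 CPM, n = 3) and lowest in hs:wnt8a/+ embryos at 5.5 hpf (35.8 ± 0.0602 CPM, n = 2), just below hs:wnt8a/+ embryos at 7.5 hpf (40.5 ± 2.72 CPM, n = 3), and neither of the hs:wnt8a/+ groups reached the level of any other group's libraries. chrd was highest at 5.5 hpf in the hs:wnt8a cross, where transgenic embryos (853 ± 131 CPM, n = 2) and siblings (741 ± 44.6 CPM, n = 3) overlapped, and lowest in hs:dkk1b/+ embryos at 7.5 hpf (284 ± 47.9 CPM, n = 3). The siblings of hs:wnt8a at 5.5 hpf lay above the siblings of hs:dkk1b of that time, the next group down, and below that neighbouring chrd groups overlapped. On deposited TPM and on CPM without TMM scaling both groups of siblings at 5.5 hpf overlapped as well. The highest and the lowest group of each gene were the same on deposited TPM and on CPM without TMM scaling. Overlap of groups is given here and below on TMM-scaled CPM unless another scale is named. How often groups failed to overlap over all genes was not counted for any comparison.

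In hs:wnt8a/+ embryos at 7.5 hpf gsc fell 3.79-fold relative to siblings, and it was the only 1 of the 4 genes to pass the test. gsc had 7.42, 6.81 and 5.12 CPM in hs:wnt8a/+ embryos, against 26.0, 22.5 and 24.8 CPM in their siblings. Every transgenic library was below every sibling library by a wide margin. The log2 fold change was −1.92 ± 0.28 (SE, 95% interval −2.50 to −1.34, n = 3 and 3, adjusted p = 0.00279, edgeR's quasi-likelihood test with Benjamini-Hochberg adjustment over 19504 genes). By p, gsc ranked 8th of all genes in this comparison, in which 19 genes passed, or 0.0974% of those tested, 18 of them lower. The ratio of gsc to nog1 in TPM was 0.212 to 0.325 in hs:wnt8a/+ embryos, against 1.20 to 1.68 in siblings, so gsc was the scarcer of the pair in the transgenic libraries and the more abundant in siblings.

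The secreted antagonists were higher on average in the same hs:wnt8a/+ embryos at 7.5 hpf, and the dorsal ligand was lower, without passing the test. nog1 had 30.0, 40.5 and 31.8 CPM in hs:wnt8a/+ embryos, against 20.4, 24.7 and 25.1 CPM in siblings. The groups did not overlap, and the log2 fold change was 0.55 ± 0.16 (SE, unadjusted p = 0.00236, adjusted p = 0.98 by edgeR). Same-numbered libraries of this comparison deviated together over all genes, but libraries 2 and 3 did so as strongly when their numbers were mismatched. With the replicate number as a block nog1 passed, at 0.54 ± 0.10 (adjusted p = 0.0233 by edgeR), beside gsc at −1.93 ± 0.14 (adjusted p = 1.85e-06). The nog1 call depends on the use of the block, and a block with other pairs was not fitted. In that blocked fit 75 genes passed, or 0.385%. chrd had 862, 489.5 and 423 CPM in hs:wnt8a/+ embryos, against 692, 311 and 312 CPM in siblings. These groups overlapped because the libraries numbered 1 were high in both genotypes, whereas within each of the 3 pairs the transgenic library was the higher. Its log2 fold change was 0.43 ± 0.28 (SE, adjusted p = 1 by edgeR, interval −0.143 to 1.01), or 0.47 ± 0.10 with the block (adjusted p = 0.0866). It was 0.059 without transgenic library 1 and 0.93 without sibling library 1, and 0.55 without both. admp had 37.3, 41.8 and 42.3 CPM in hs:wnt8a/+ embryos, against 61.9, 59.8 and 52.2 CPM in siblings. All 3 transgenic libraries were below all 3 sibling libraries, and the log2 fold change was −0.52 ± 0.23 (SE, unadjusted p = 0.0354, adjusted p = 1 by edgeR) or −0.52 ± 0.12 with the block (adjusted p = 0.115).

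The gsc call at 7.5 hpf in hs:wnt8a/+ embryos was kept in 13 of 15 alternative settings. It was lost without both libraries numbered 2 (−2.02, adjusted p = 0.054 by edgeR) and without both numbered 3 (−1.77, adjusted p = 0.112), with the size little changed. Ectoderm markers moved alongside it: the 5 listed genes, none at 0, summed to 720 to 786 TPM in hs:wnt8a/+ embryos, against 855 to 993 TPM in siblings. All 5 had a negative log2 fold change, and sox2, a transcription factor of the neural ectoderm, fell (−1.36 ± 0.17, adjusted p = 0.000728 by edgeR). The 9 identifiers of 6 dorsal mesendoderm markers, none at 0 and none called, summed to 765 to 1139 TPM in hs:wnt8a/+ embryos, against 764 to 1283 TPM in siblings. The part of these shifts in the gsc result was not tested.

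**Figure D2:**
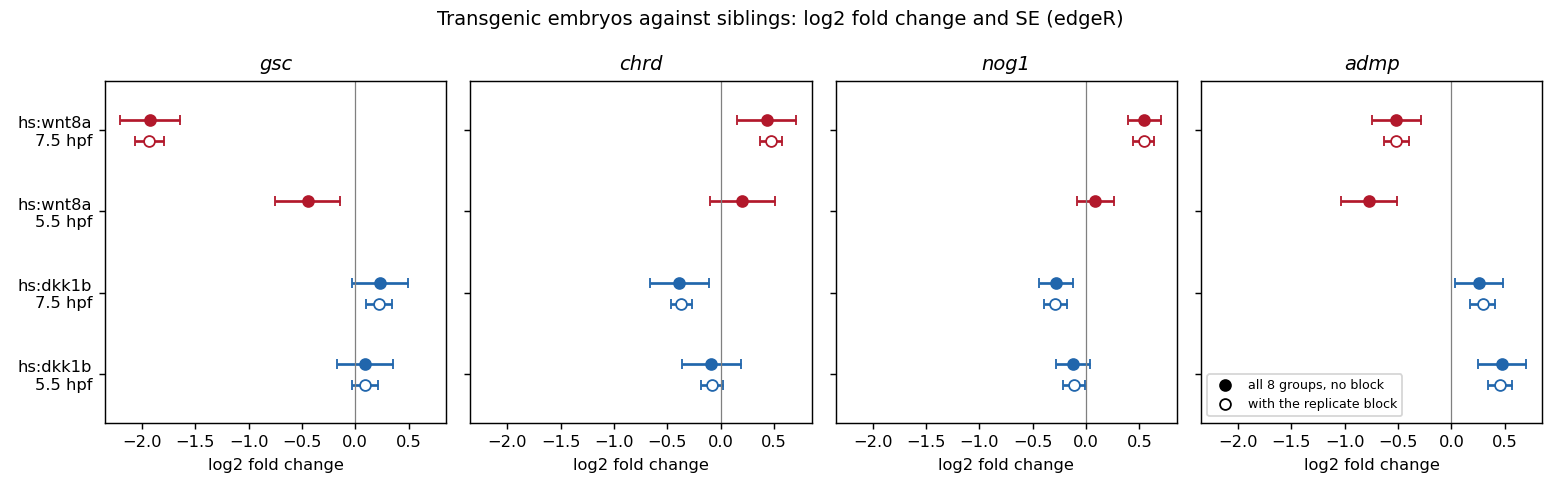
Log2 fold change (x axis) of gsc, chrd, nog1 and admp in transgenic embryos against their siblings. Each gene has its own panel, with the 4 comparisons along the y axis. Points are edgeR estimates with bars of 1 SE, filled without and open with the replicate number as a block, and no open point is drawn for hs:wnt8a at 5.5 hpf, where same-numbered libraries did not deviate together. gsc in hs:wnt8a/+ embryos at 7.5 hpf, at −1.92, is the point farthest from 0.

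At 5.5 hpf none of the 4 genes passed between hs:wnt8a/+ embryos and their siblings. In this comparison 0 of all genes passed by edgeR (0%), 649 had an unadjusted p under 0.05 and DESeq2 called 5, all lower. The transgene's own wnt8a_1 was tested and not called by either, so the lack of calls says little about the 4 genes. admp had 35.7 and 35.8 CPM in hs:wnt8a/+ embryos, against 55.3, 71.9 and 56.1 CPM in siblings. Both transgenic libraries were below all 3 sibling libraries, and the log2 fold change was −0.77 ± 0.26 (SE, interval −1.32 to −0.223, unadjusted p = 0.00833, adjusted p = 1 by edgeR). gsc had 12.7 and 14.0 CPM in hs:wnt8a/+ embryos, against 14.8, 23.5 and 16.1 CPM in siblings. These groups did not overlap either, although 1 sibling library lay close to a transgenic one, and the log2 fold change was −0.44 ± 0.30 (interval −1.08 to 0.191). With 2 libraries against 3, how often groups failed to overlap over all genes was not counted. chrd had 945 and 761 CPM in hs:wnt8a/+ embryos, against 690.4, 774.5 and 758 CPM in siblings. nog1 had 28.9 and 27.4 CPM in hs:wnt8a/+ embryos, against 28.3, 23.1 and 28.1 CPM in siblings. Both antagonists overlapped between genotypes, with log2 fold changes of 0.20 ± 0.31 for chrd and 0.09 ± 0.18 for nog1. DESeq2 called none of the 4 genes here. Without the block admp was the 1 gene of the 4 with an unadjusted p under 0.05 by edgeR.

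The difference between the 7.5 and the 5.5 hpf effect of hs:wnt8a was tested directly, and 0 of the 4 genes passed, against 0.00513% of all genes. For gsc the effect at 7.5 hpf minus that at 5.5 hpf was −1.48 ± 0.40 on the log2 scale (SE, unadjusted p = 0.00158, adjusted p = 1 by edgeR). The difference was 0.46 ± 0.24 for nog1, 0.25 ± 0.35 for admp and 0.23 ± 0.41 for chrd. With the replicate block gsc passed (−1.43, adjusted p = 0.02 by edgeR), in a fit in which 19 of the 19504 genes did. Same-numbered libraries of this cross deviated together at 7.5 hpf but not at 5.5 hpf, and the call depends on the use of the block. The wnt8a_1 level in siblings, given above, differed between these times.

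Dkk1b gave no called difference of the 4 genes at 7.5 hpf, where 30 genes passed, or 0.154% of those tested. chrd had 270.5, 337 and 244 CPM in hs:dkk1b/+ embryos, against 333.5, 485 and 294 CPM in siblings. The groups overlapped, while in each pair the transgenic library was the lower, with log2 ratios of −0.528 to −0.271. The log2 fold change of chrd was −0.39 ± 0.28 (SE, adjusted p = 1 by edgeR, interval −0.963 to 0.189), and with 1 library left out it ran from −0.533 to −0.145, nearest to 0 without sibling library 2. nog1 had 15.5, 17.3 and 13.5 CPM in hs:dkk1b/+ embryos, against 18.7, 19.9 and 17.7 CPM in siblings. All 3 transgenic libraries were below the sibling libraries, and the log2 fold change was −0.28 ± 0.16 (unadjusted p = 0.0912, adjusted p = 1 by edgeR).

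The other two genes were higher on average at 7.5 hpf in hs:dkk1b/+ embryos, with groups that overlapped. gsc had 34.7, 24.0 and 32.2 CPM in hs:dkk1b/+ embryos, against 26.8, 24.1 and 26.5 CPM in siblings, a log2 fold change of 0.23 ± 0.26 (SE, interval −0.312 to 0.782). Its libraries numbered 2 were almost equal in the 2 genotypes. admp had 59.6, 91.7 and 54.0 CPM in hs:dkk1b/+ embryos, against 43.8, 85.3 and 42.5 CPM in siblings, a log2 fold change of 0.26 ± 0.23. The transgenic library was the higher in all 3 admp pairs, by 0.103 to 0.443 on the log2 scale, which is less than the distance of pair 2 from the other pairs. With the block the adjusted p was 0.183 for chrd, 0.419 for nog1, 0.497 for admp and 0.681 for gsc by edgeR, so none passed, where 0.749% of all genes did. Without both libraries of high hsp70l the log2 fold changes were −0.43 for chrd, −0.30 for nog1, 0.18 for admp and 0.15 for gsc.

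At 5.5 hpf, too, 0 of the 4 genes passed between hs:dkk1b/+ embryos and siblings, where 10 genes passed, or 0.0513%. Without the block none of the 4 had an unadjusted p under 0.05 by edgeR in either hs:dkk1b comparison, and DESeq2 called none of them. With the block the unadjusted p by edgeR was 0.00132 for admp at 5.5 hpf. At 7.5 hpf it was 0.00291 for chrd, 0.0151 for nog1 and 0.0236 for admp, and the other values stayed above 0.05. At 5.5 hpf admp came closest to passing, with 142.9, 94.1 and 130.9 CPM in hs:dkk1b/+ embryos, against 86.3, 84.1 and 94.6 CPM in siblings. The libraries numbered 2 brought the groups into overlap, while the transgenic library was the higher in all 3 pairs. The log2 fold change of admp was 0.47 ± 0.23 (SE, interval −0.00151 to 0.949, unadjusted p = 0.0507, adjusted p = 1 by edgeR) and 0.45 ± 0.11 with the block (adjusted p = 0.229), where 0.246% of all genes passed. gsc had 24.7, 44.0 and 22.0 CPM in hs:dkk1b/+ embryos, against 21.0, 41.8 and 22.4 CPM in siblings. Pair 2 was far above the other pairs in both genotypes, and the log2 fold change was 0.09 ± 0.26. The antagonists overlapped between genotypes as well. chrd had 593, 580.2 and 514 CPM in hs:dkk1b/+ embryos, against 642, 527 and 621 CPM in siblings (−0.09 ± 0.28). nog1 had 19.9, 17.6 and 15.4 CPM in hs:dkk1b/+ embryos, against 23.8, 17.4 and 16.5 CPM in siblings (−0.12 ± 0.16).

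The hs:dkk1b effect at 7.5 hpf minus that at 5.5 hpf was 0.15 ± 0.37 for gsc, −0.30 ± 0.39 for chrd, −0.16 ± 0.22 for nog1 and −0.22 ± 0.32 for admp on the log2 scale. None of these 4 differences passed in edgeR (adjusted p = 1 each), and 0 of all genes did (0%), with 170 at an unadjusted p under 0.05 and 1 called by DESeq2.

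The effects of the 2 transgenes, each against its own siblings, pointed in opposite directions for all 4 genes at 7.5 hpf, and a test of their difference was added after the values were seen. Without the block none of the 4 hs:dkk1b effects had an unadjusted p under 0.05 by edgeR. The block brought the unadjusted p of chrd (0.00291), nog1 (0.0151) and admp (0.0236) under 0.05, but not that of gsc (0.0921). None of these passed after adjustment. The admp effect turned to −0.0129 without transgenic library 2 and was 0.39 without both libraries of pair 2. How many of all genes had opposite signs was not counted. For gsc the hs:wnt8a effect minus the hs:dkk1b effect was −2.16 ± 0.38 on the log2 scale (SE, interval −2.95 to −1.36, adjusted p = 0.0121 by edgeR). gsc was thereby 1 of the 40 genes that passed, or 0.205% of those tested. The differences for the other members were 0.83 ± 0.22 for nog1 (unadjusted p = 0.00141, adjusted p = 0.298), 0.82 ± 0.39 for chrd (unadjusted p = 0.0485, adjusted p = 1) and −0.78 ± 0.32 for admp (unadjusted p = 0.0265, adjusted p = 1), none of which passed in edgeR. With the block all 4 passed, where 1.27% of all genes did. Same-numbered libraries deviated together in both crosses. In the hs:wnt8a cross, though, libraries 2 and 3 did so as strongly when their numbers were mismatched. The calls of nog1, chrd and admp depend on the use of the block, and a block with other pairs was not fitted. The blocked values by edgeR were −2.15 ± 0.18 for gsc (adjusted p = 1.34e-05), 0.83 ± 0.14 for nog1 (adjusted p = 0.00746), 0.84 ± 0.15 for chrd (adjusted p = 0.00745) and −0.81 ± 0.16 for admp (adjusted p = 0.0234). Without both libraries of high hsp70l and without the block, gsc stood at −2.07 (adjusted p = 0.132 by edgeR). The crosses differed in the heat shock as well as in the transgene, and for this difference the 2 cannot be told apart.

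At 5.5 hpf the same difference between the effects of hs:wnt8a and hs:dkk1b was −1.25 ± 0.35 for admp (SE, unadjusted p = 0.00191, adjusted p = 0.865 by edgeR), −0.53 ± 0.40 for gsc, 0.29 ± 0.41 for chrd and 0.21 ± 0.24 for nog1. None of the 4 passed, against 6 of all genes, or 0.0308%.

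Over the 2 hours between the stages, chrd and admp were lower on average at 7.5 hpf in both genotypes of the hs:dkk1b cross. nog1 passed the test in no group. In hs:wnt8a/+ embryos nog1 was higher at 7.5 hpf with no overlap (log2 fold change 0.28, interval −0.0904 to 0.644). In siblings of both crosses and in hs:dkk1b/+ embryos it was lower on average. In the siblings of hs:dkk1b, admp had 43.8, 85.3 and 42.5 CPM at 7.5 hpf, against 86.3, 84.1 and 94.6 CPM at 5.5 hpf. Libraries 1 and 3 at 7.5 hpf were far below the earlier ones, and library 2 was not. The log2 fold change was −0.63 ± 0.23 (SE, adjusted p = 0.0435 by edgeR), and admp was the 1 member of 4 to pass where 31% of all genes did. This call passed in 5 of 13 alternative settings and rests on single libraries. Without library 2 at 7.5 hpf it was −1.03 (adjusted p = 0.00134), without library 1 −0.46 (adjusted p = 0.189) and without library 3 −0.45 (adjusted p = 0.198). chrd in these siblings had 333.5, 485 and 294 CPM at 7.5 hpf, against 642, 527 and 621 CPM at 5.5 hpf, with no overlap (−0.69 ± 0.28, adjusted p = 0.0647 by edgeR). Same-numbered libraries of the 2 times deviated weakly together in these siblings (correlations of 0.167, 0.214 and 0.311). In hs:dkk1b/+ embryos not all of them did (0.0615, 0.103 and 0.249), and mismatched numbers were not compared. With the block chrd passed in these siblings (−0.72, adjusted p = 0.0147 by edgeR), where 36.5% of all genes did.

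In hs:dkk1b/+ embryos 2 of the 4 genes were called between the times, against 30.1% of all genes. chrd had 270.5, 337 and 244 CPM at 7.5 hpf, against 593, 580.2 and 514 CPM at 5.5 hpf (−0.99 ± 0.28, SE, adjusted p = 0.0117 by edgeR). admp had 59.6, 91.7 and 54.0 CPM at 7.5 hpf, against 142.9, 94.1 and 130.9 CPM at 5.5 hpf (−0.84 ± 0.23, adjusted p = 0.00948 by edgeR). Both genes fell with no overlap in TMM-scaled CPM. admp did overlap in deposited TPM (up to 81.3 at 7.5 hpf and from 75.1 at 5.5 hpf). It also overlapped in CPM without TMM scaling (up to 100.1 and from 90.1). Both calls were lost without library 3 at 7.5 hpf (adjusted p = 0.0541 for chrd and 0.0582 for admp by edgeR). gsc did not pass (0.00 ± 0.26, adjusted p = 0.993 by edgeR), and nog1 did not either (−0.19, adjusted p = 0.383).

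In the hs:wnt8a cross 1 member passed in each genotype, against 40.2% of all genes in siblings and 39.6% in hs:wnt8a/+ embryos. In siblings it was chrd, with 692, 311 and 312 CPM at 7.5 hpf, against 690.4, 774.5 and 758 CPM at 5.5 hpf (−0.76 ± 0.28, SE, adjusted p = 0.035 by edgeR). Library 1 at 7.5 hpf was as high as the earlier libraries and made the groups overlap. Without it the log2 fold change was −1.25 (adjusted p = 0.000707), and without library 2 or 3 the call was lost (−0.56, adjusted p = 0.161, and −0.57, adjusted p = 0.149). In hs:wnt8a/+ embryos it was gsc, with 7.42, 6.81 and 5.12 CPM at 7.5 hpf, against 12.7 and 14.0 CPM at 5.5 hpf. It fell with no overlap (−1.05 ± 0.30, adjusted p = 0.0103 by edgeR), and the call was lost without library 2 at 5.5 hpf (−0.96, adjusted p = 0.0761). In siblings of that cross gsc had 26.0, 22.5 and 24.8 CPM at 7.5 hpf, against 14.8, 23.5 and 16.1 CPM at 5.5 hpf (0.43 ± 0.26, adjusted p = 0.205 by edgeR), a difference that limma on log2(TPM + 0.1) called (0.65, adjusted p = 0.0452). chrd in hs:wnt8a/+ embryos overlapped between the times (−0.53, adjusted p = 0.178 by edgeR) and passed without library 1 at 7.5 hpf (−0.90, adjusted p = 0.0232).

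gsc, chrd and admp each had a pair of libraries that stood apart within a group, and the pairs named here also stood apart along the time course. For each library this position was computed from the genes called between the times in siblings of the other cross (7838 genes for the hs:dkk1b libraries and 6049 for the hs:wnt8a libraries), with 0 at the 5.5 hpf and 1 at the 7.5 hpf sibling mean of its own cross. Pair 2 of hs:dkk1b at 5.5 hpf lay at −0.357 in the transgenic and −0.337 in the sibling library, earlier than the other 4 libraries at 0.147 to 0.243. It was the pair with the highest gsc of that time in the cross. It also held the lowest admp of each genotype, at 94.1 CPM in the transgenic and 84.1 CPM in the sibling library. Position and level did not go together in 1 way. Sibling library 2 of hs:wnt8a at 5.5 hpf had the highest gsc (23.5 CPM) and admp (71.9 CPM) of its group. It lay latest in that group, at 0.0693. At 7.5 hpf in the hs:dkk1b cross, pair 2 lay at 0.898 in the transgenic and 0.873 in the sibling library, against 0.994 to 1.11 in the others, and held the highest admp and chrd. Pair 1 of the hs:wnt8a cross at 7.5 hpf lay at 0.855 in both genotypes, against 1.06 and 1.09 in the other siblings and 0.928 and 1.03 in the other transgenic libraries, and held the highest chrd. The part of this position in the differences between libraries of a group was not tested. Genotypes of a pair could differ in position too, as in pair 2 of the hs:wnt8a cross at 7.5 hpf, with 0.928 in the transgenic and 1.09 in the sibling library.

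**Figure D3:**
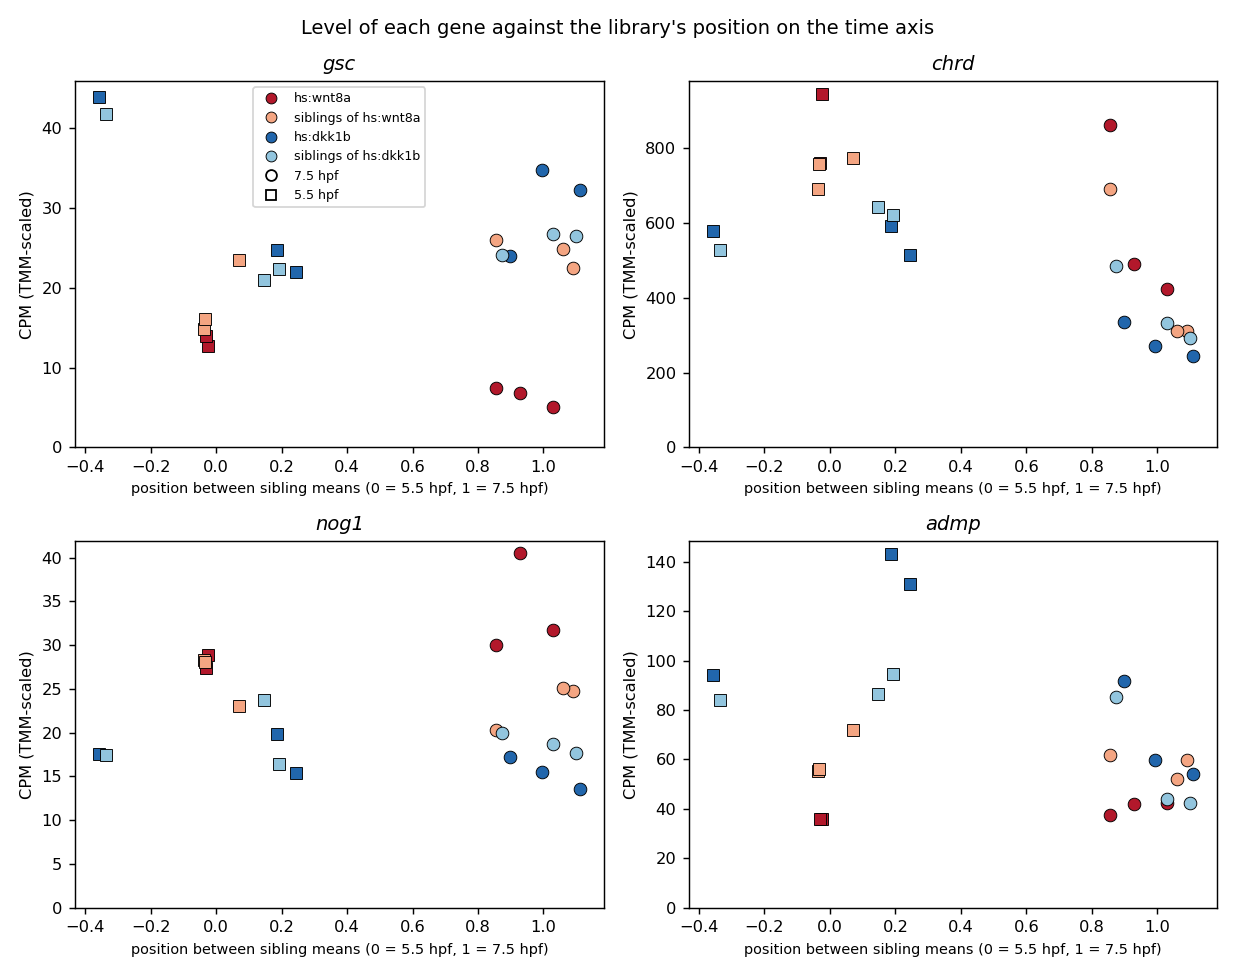
TMM-scaled CPM (y axis) of each of the 4 genes against the position of the library along the time course (x axis, 0 at the 5.5 hpf and 1 at the 7.5 hpf sibling mean of its cross). Circles are 7.5 hpf and squares 5.5 hpf libraries, coloured by group. The 7.5 hpf libraries of pair 1 in the hs:wnt8a cross, at 0.855, hold the highest chrd of their time.

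Siblings of the 2 crosses are both labelled wild type but were heat shocked differently, and they were compared at each time. At 5.5 hpf 0 of the 4 passed, against 7.73% of all genes. An unadjusted p under 0.05 by edgeR was found for 3 of them, as it was for 24.6% of all genes. gsc was lower in siblings of hs:wnt8a than in siblings of hs:dkk1b (−0.65 ± 0.27 on the log2 scale, SE, adjusted p = 0.135 by edgeR). admp was lower as well (−0.53 ± 0.23, adjusted p = 0.155). nog1 was higher (0.47 ± 0.16, adjusted p = 0.0743) and so was chrd (0.31 ± 0.28, adjusted p = 0.524). Libraries of chrd and admp did not overlap, but how often this held over all genes was not counted. For chrd they did overlap in CPM without TMM scaling and in deposited TPM (from 334.8 in siblings of hs:wnt8a and up to 337.9 in siblings of hs:dkk1b). nog1 passed in 3 of 12 alternative settings. At 7.5 hpf 0 of the 4 passed either, against 1.77% of all genes. The log2 fold changes there were 0.32 ± 0.16 for nog1 (adjusted p = 0.319 by edgeR), 0.24 for chrd, −0.08 for gsc and 0.02 for admp. Libraries of nog1 did not overlap there in TMM-scaled CPM, but did in deposited TPM and in CPM without TMM scaling. The siblings of hs:wnt8a also held the wnt8a_1 RNA given above. The other identifier named wnt8a, wnt8a_2, was lower in them on average. Its means were 18.1 CPM at 5.5 hpf and 19.7 CPM at 7.5 hpf, against 59.4 and 50.5 CPM in siblings of hs:dkk1b. The part of wnt8a RNA, that of the heat shock and that of the cross cannot be told apart here.

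The organizer is induced through β-catenin targets and Nodal signalling, and of the 10 genes listed for this step 9 were tested. None of these 9 passed in any of the 4 comparisons of a transgene with its siblings. Their median log2 fold change was −0.17 in hs:wnt8a/+ embryos at 7.5 hpf, 0.14 at 5.5 hpf, −0.52 in hs:dkk1b/+ embryos at 7.5 hpf and −0.21 at 5.5 hpf, whereas the median of all genes lay between −0.00453 and 0.00691 each time. dharma, the homeobox gene that β-catenin switches on before the organizer forms, was at 1.30 ± 0.81 (SE) in hs:wnt8a/+ embryos at 5.5 hpf, and the Nodal ligand ndr2 at −0.33 ± 0.31. In hs:wnt8a/+ embryos at 7.5 hpf tdgf1, the Nodal co-receptor, was at −0.97 ± 0.29 and foxh1, a transcription factor that works with Nodal-activated Smads, at −0.23 ± 0.22. With the block tdgf1 passed (−0.997, adjusted p = 2.71e-06 by edgeR), where 0.385% of all genes did. Its libraries overlapped and it did not pass without the block, so this call too depends on the use of the block. In hs:dkk1b/+ embryos at 7.5 hpf foxh1 was at 0.79 ± 0.22 and lhx1a, a LIM homeobox gene of the organizer, at −0.84 ± 0.45. With the block foxh1 passed as higher (0.79, adjusted p = 0.000528), and lhx1a (−0.83, adjusted p = 0.0032) and the mesendoderm gene mixl1 (−1.19, adjusted p = 0.0356) as lower, by edgeR. In that blocked fit 0.749% of all genes passed. At 5.5 hpf in hs:dkk1b/+ embryos foxh1 was at 0.46 ± 0.22 and mixl1 at −0.79 ± 0.57. At 7.5 hpf against 5.5 hpf, 8 of the 9 genes fell in siblings of hs:dkk1b, where 3004 of the 19504 genes fell, 8 in siblings of hs:wnt8a, where 3581 did, 8 in hs:dkk1b/+ embryos, where 2916 did, and 9 in hs:wnt8a/+ embryos, where 3534 did.

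Other extracellular and intracellular antagonists of BMP, and proteins that act on Chordin, had 12 tested members and 0 calls in the 4 comparisons. Their median log2 fold changes were −0.10 in hs:wnt8a/+ embryos at 7.5 hpf and −0.04 at 5.5 hpf, and 0.06 in hs:dkk1b/+ embryos at 7.5 hpf and 0.21 at 5.5 hpf. tll1, a Tolloid protease, was at 0.62 ± 0.18 (SE) in hs:dkk1b/+ embryos at 7.5 hpf (adjusted p = 0.633 by edgeR) and at −0.22 ± 0.18 in hs:wnt8a/+ embryos. The other protease named, bmp1a, was at 0.14 ± 0.14 in hs:wnt8a/+ embryos at 5.5 hpf. bmper, a secreted BMP modulator, was at 0.17 ± 0.12 in hs:wnt8a/+ embryos at 7.5 hpf. The inhibitory Smad gene smad6b was at 0.78 ± 0.28 in hs:dkk1b/+ embryos at 7.5 hpf, at 0.57 ± 0.30 at 5.5 hpf and at −0.64 ± 0.36 in hs:wnt8a/+ embryos at 5.5 hpf. pnhd, whose protein is secreted, was at −0.70 ± 0.31 in hs:dkk1b/+ embryos at 7.5 hpf and at −0.52 ± 0.31 at 5.5 hpf. With the block smad6b (adjusted p = 0.0474) and pnhd (−0.69, adjusted p = 0.00705 by edgeR) passed at 7.5 hpf in hs:dkk1b/+ embryos, in opposite directions, where 0.749% of all genes passed.

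The BMP ligands, receptors and effectors that these antagonists act on had 15 tested members, and none of the 15 was called. Their median was −0.06 in hs:wnt8a/+ embryos at 7.5 hpf and −0.02 at 5.5 hpf, against 0.33 in hs:dkk1b/+ embryos at 7.5 hpf, where 14 of 15 were positive, and 0.15 at 5.5 hpf. The ligand bmp7a was at 0.63 ± 0.23 (SE) and the BMP target id3 at 0.47 ± 0.17 in hs:dkk1b/+ embryos at 7.5 hpf. With the block both passed as higher (adjusted p = 0.0048 for bmp7a and 0.0372 for id3 by edgeR), where 0.749% of all genes passed. At 5.5 hpf in hs:dkk1b/+ embryos the BMP target id1 was at 0.45 ± 0.18 and the type I receptor bmpr1ab at 0.24 ± 0.13. At 7.5 hpf in hs:wnt8a/+ embryos bmp7a was at −0.28 ± 0.23 and the ligand bmp4 at −0.19 ± 0.18. At 5.5 hpf the type II receptor bmpr2a was at −1.31 ± 0.33 and the ligand gdf6a at 3.11 ± 1.11, neither past the test (adjusted p = 1 each by edgeR).

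Among 12 tested ventral genes, msx1b was called in both hs:dkk1b comparisons and no other member was called in any. msx1b, a homeobox gene of ventral and lateral ectoderm and the neural plate border, fell in hs:dkk1b/+ embryos, with log2 fold changes of −2.13 ± 0.28 at 7.5 hpf (SE, adjusted p = 0.000495 by edgeR) and −2.29 ± 0.28 at 5.5 hpf (adjusted p = 0.0011). The list's median was −0.02 at 7.5 hpf and −0.34 at 5.5 hpf in that cross. vox and vent, homeobox repressors of organizer genes, were at −0.40 ± 0.21 and −0.26 ± 0.37 (SE) at 7.5 hpf and at −0.31 ± 0.21 and −0.55 ± 0.38 at 5.5 hpf in hs:dkk1b/+ embryos. With the block, ved, a relative of vox and vent (−0.68, adjusted p = 0.00306), and eve1, a homeobox gene of the ventral margin (−1.48, adjusted p = 0.000141), also passed as lower at 7.5 hpf by edgeR. gata2a, a transcription factor of ventral ectoderm and mesoderm, passed as higher (0.72, adjusted p = 0.0175), and at 5.5 hpf eve1 passed as lower (−1.32, adjusted p = 0.000507). Of all genes, 0.749% passed with the block at 7.5 hpf and 0.246% at 5.5 hpf. The median in hs:wnt8a/+ embryos was −0.01 at 7.5 hpf, with gata2a at −0.52 ± 0.22 and the epidermal gene tp63 at −0.31 ± 0.37. It was 0.19 at 5.5 hpf, with ved at 0.40 ± 0.21 and msx1b at 0.51 ± 0.29.

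**Figure D4:**
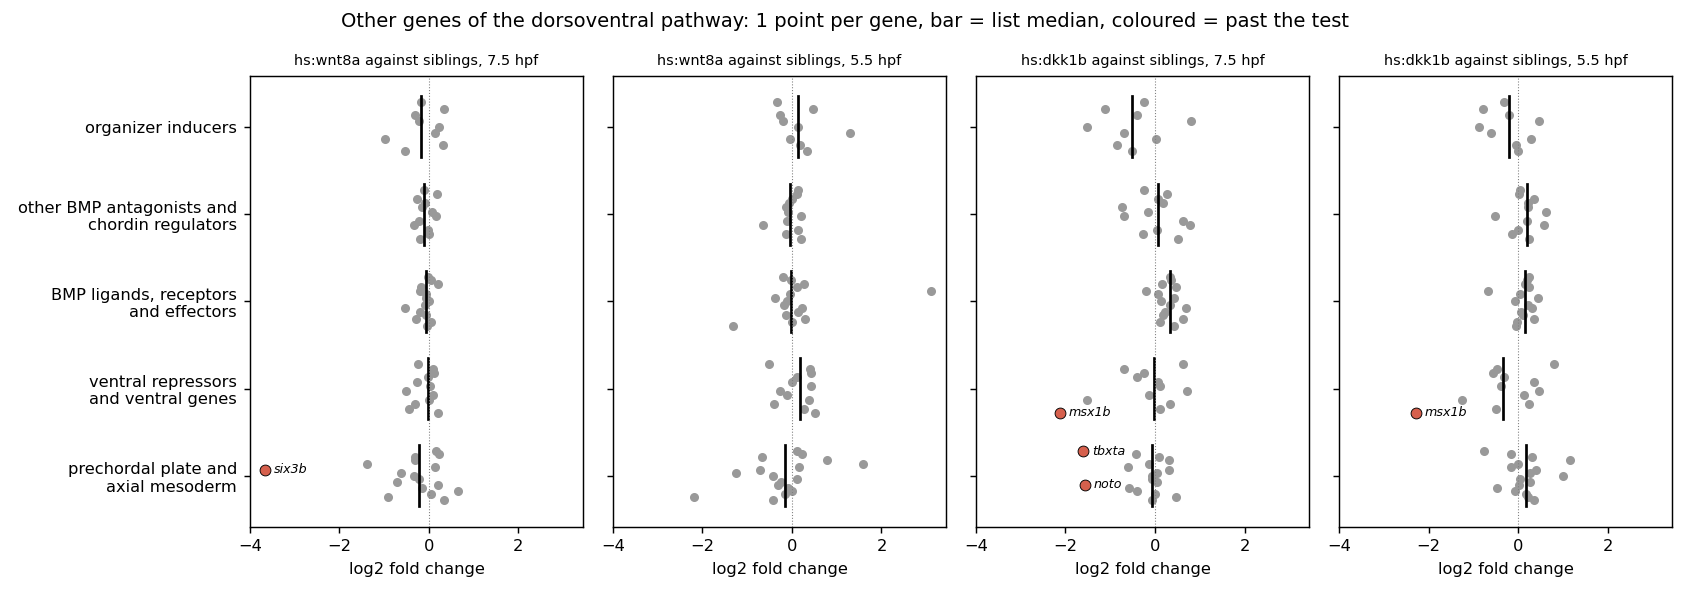
Log2 fold change (x axis) of the tested genes of 5 lists (y axis) in transgenic embryos against siblings. Each of the 4 comparisons has its own panel. Each point is 1 gene, the bar is the median of its list, and coloured points passed edgeR's test. The passing genes are six3b in hs:wnt8a/+ embryos at 7.5 hpf, msx1b, noto and tbxta in hs:dkk1b/+ embryos at 7.5 hpf and msx1b at 5.5 hpf.

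The tissues that leave the organizer, prechordal plate and axial mesoderm, were covered by 17 identifiers of 14 symbols, some of which are also expressed in anterior neural plate. In hs:wnt8a/+ embryos at 7.5 hpf six3b was the 1 list member called, and it was the gene with the smallest p of all. six3b, a homeobox gene of the forebrain, had 6.81, 6.38 and 4.05 CPM in hs:wnt8a/+ embryos, against 59.2, 78.7 and 80.6 CPM in siblings. It fell with no overlap (−3.66 ± 0.28, SE, adjusted p = 5.85e-07 by edgeR). With the block otx2b, a homeobox gene of head tissue (−1.001, adjusted p = 0.0233), and the Wnt receptor gene fzd8b (−0.74, adjusted p = 0.00417) passed as lower by edgeR. frzb, a secreted Wnt antagonist, passed as higher (0.64, adjusted p = 0.00527). In that blocked fit 0.385% of all genes passed, and the calls of otx2b, fzd8b and frzb depend on the use of the block. In hs:wnt8a/+ embryos at 5.5 hpf lft2, a Nodal inhibitor, was at −1.25 ± 0.27 (adjusted p = 0.838) and otx2b at −2.18 ± 0.72 (adjusted p = 1), neither past the test in edgeR without the block. With the block both passed (−1.365 for lft2 and −2.442 for otx2b, adjusted p = 0.0127 each by edgeR). In that fit 113 of the 19504 genes passed, and same-numbered libraries did not deviate together there. The medians of the list in hs:wnt8a/+ embryos were −0.21 at 7.5 hpf and −0.15 at 5.5 hpf.

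In hs:dkk1b/+ embryos at 7.5 hpf the called members of that list were noto and tbxta, transcription factor genes of the notochord, the axial tissue behind the prechordal plate. noto had 12.1, 15.7 and 11.4 CPM in hs:dkk1b/+ embryos, against 37.3, 40.2 and 38.4 CPM in siblings. tbxta, which is also expressed around the whole margin, had 56.0, 69.8 and 48.4 CPM in hs:dkk1b/+ embryos, against 171.5, 218 and 143 CPM in siblings. Both fell with no overlap, noto at −1.57 ± 0.19 (SE, adjusted p = 0.00035 by edgeR) and tbxta at −1.61 ± 0.32 (adjusted p = 0.0427). Both libraries of high hsp70l are in these values, and without them 10 rather than 30 genes passed in this comparison. With the block shha, the signal of the axial mesoderm, passed as lower as well (−0.60, adjusted p = 0.0321 by edgeR). Of all genes, 0.749% passed with the block at 7.5 hpf and 0.246% at 5.5 hpf. At 5.5 hpf tbxta was at −0.76 ± 0.31 without the block and passed with it (−0.85, adjusted p = 0.00385), and foxa2, a forkhead gene of axial mesendoderm, was at 0.36 ± 0.18. The medians were −0.07 at 7.5 hpf and 0.18 at 5.5 hpf. The 9 identifiers of the dorsal mesendoderm markers, which include noto and tbxta, summed to 546 to 800 TPM in hs:dkk1b/+ embryos at 7.5 hpf, against 783 to 998 TPM in siblings, while the 5 ectoderm markers summed to 984 to 1025 TPM in hs:dkk1b/+ embryos, against 784 to 843 TPM in siblings. None of these was at 0 in either group, and the part of these sums in the values of the 4 organizer genes was not tested.

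The genes whose log2 CPM followed each member most closely over the 23 libraries were different for each of the 4. For gsc they were fzd8a (Pearson r = 0.877), hesx1 (0.861), fzd5 (0.814), htatip2 (0.804) and sox2 (0.786). For chrd they were ggnbp2 (0.944), ror2 (0.943), vrtn (0.933), gtf2a2 (0.929) and marcksb (0.923), and for nog1 tbrg4 (0.861), elac2 (0.853), lef1 (0.852), efna5a (0.847) and gtf3aa (0.843). For admp they were sptan1 (0.882), smarcb1b (0.88), st8sia1 (0.88), otx2a (0.876) and tjp2a (0.875). These values describe 23 libraries that share 8 groups and 2 times, out of 10793 genes compared with each member.

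Reads of a neighbouring gene could enter the counts of 3 members, since the strand setting of the counting is not given in the sources used here. In the RefSeq annotation of the GRCz12tu assembly, a later build than that of the files, 1 long non-coding RNA gene overlaps gsc and 1 overlaps admp, 1 other protein-coding gene overlaps nog1, and none overlaps chrd. pnhd is the next coding gene after admp in that annotation. The part of reads from overlapping genes in the counts was not tested.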

How the data were processed

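RNA of whole zebrafish embryos was sequenced in 23 libraries of 8 groups. The deposited tables give, for each gene and library, a raw count with the TPM and the RPKM that the authors computed from it. Per the submitters' processing notes the build was GRCz11 and edgeR was used; aligner, counter and strand setting: not given in the sources used here. RPKM was not used further. TPM served for levels between genes and counts for every test.

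Counts of 31743 genes were filtered with filterByExpr (19504 kept), scaled by TMM and fitted for all 8 groups together with edgeR 4.0.16 in R 4.3.3 (glmQLFit, glmQLFTest), with Benjamini-Hochberg adjustment over all tested genes and a threshold of 0.05. The SE of a log2 fold change is its size divided by the square root of F. Alternatives used DESeq2 1.42.0 and limma 3.58.1 on log2(TPM + 0.1). The limma fit was chosen after seeing the data, as were the settings without a whole pair and the tests of one transgene's effect against the other's. Python 3.11.15, pandas 2.3.3 and matplotlib 3.10.9 made summaries and figures. The fitting step was tested on simulated data.

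The 4 genes, the gene lists and the tests were chosen with earlier results of these data known. Of 92 list symbols, 3 matched no gene of the files (twsg1b, cer1 and smad9), and hwa, nog2, fstb and grem2b were not tested because of low counts; pnhd appears in the files under a clone name. From each list the text names every member that passed in a comparison of a transgene with its siblings, and otherwise the 2 of smallest p. Calls that passed only with the replicate block, vox and vent, and the ectoderm gene sox2 were named after their values were seen.

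Replicate numbers were taken as pairing libraries where every same-numbered pair had a correlation of deviations from the group means above 0.1, over all tested genes. This held for hs:dkk1b and siblings at 5.5 hpf (0.476, 0.707 and 0.551), at 7.5 hpf (0.606, 0.525 and 0.465) and for hs:wnt8a and siblings at 7.5 hpf (0.726, 0.307 and 0.509), and between the times for the siblings of hs:dkk1b (0.167, 0.214 and 0.311). It did not hold for hs:wnt8a and siblings at 5.5 hpf (−0.0676 and −0.0865), nor between the times for hs:dkk1b/+ embryos (0.0615, 0.103 and 0.249). Between the times only same-numbered libraries were correlated. Mismatched numbers reached similar values for hs:wnt8a and siblings at 7.5 hpf. Transgenic library 2 had 0.351 with sibling library 3, and transgenic library 3 had 0.511 with sibling library 2. There the numbers set only pair 1 apart. No 2 libraries of a group agreed within sampling noise (chi-square divided by its degrees of freedom, 3.08 to 54), so all were counted as separate. This does not show that they are independent. The most alike were siblings of hs:wnt8a. Libraries 1 and 3 at 5.5 hpf had 3.08, against 32.5 and 33.6 with library 2. Libraries 2 and 3 at 7.5 hpf had 3.53, against 49.3 and 47.6 with library 1.

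Among marker sets for other parts of the embryo, summed TPM over all libraries ran from 13350 to 18890 for the enveloping layer, 336.5 to 502 for the yolk syncytial layer and 46.7 to 306 for primordial germ cells. Blood and muscle markers, which a gastrula should lack, summed to 1.55 to 10.5 TPM, with hbae1.1_1 at 0 in the hs:dkk1b cross at 5.5 hpf and mylpfa at 0 in the hs:wnt8a cross at 5.5 hpf.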

Additional observations from a re-analysis of the deposited data

How the results depend on the processing

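Of the alternative values of the 4 genes' log2 fold changes, 738 kept direction and side of the threshold, 17 came to pass, 20 no longer passed and 33 changed sign. The cause was not tested where a call changed. Signs turned as follows. For gsc in hs:dkk1b embryos at 7.5 against 5.5 hpf they were −0.016 with DESeq2 and with RLE scaling, −0.000746 with no low-count filter, −0.0044 with only the groups compared and −0.10 without pair 1 of hs:dkk1b at 7.5 hpf. chrd in hs:dkk1b against siblings at 5.5 hpf was 0.0048 without pair 3. With limma on log2(TPM + 0.1), nog1 was 0.033 between the times in siblings of hs:dkk1b, and in siblings of hs:wnt8a admp was 0.12 and nog1 0.0104; there TPM shifted the median of all genes by 0.182, and by 0.138 in hs:wnt8a embryos. admp between siblings of hs:wnt8a and of hs:dkk1b at 7.5 hpf was −0.14 without pair 1 of hs:dkk1b.

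With 1 library left out, signs turned within these ranges: gsc −0.284 to 0.476 and nog1 −0.225 to 0.0573 in hs:dkk1b against siblings at 5.5 hpf, admp −0.0129 to 0.665 at 7.5 hpf, admp −0.486 to 0.191 and gsc −0.241 to 0.519 for the 7.5 minus the 5.5 hpf effect of hs:dkk1b, nog1 −0.00112 to 0.131 in hs:wnt8a against siblings at 5.5 hpf, and chrd −0.144 to 0.724 for the 7.5 minus the 5.5 hpf effect of hs:wnt8a. Between the times they were gsc −0.181 to 0.376 in hs:dkk1b embryos, gsc −0.317 to 0.244 and nog1 −0.129 to 0.148 in siblings of hs:dkk1b, and admp −0.138 to 0.0573 in siblings of hs:wnt8a. Between the siblings of the 2 crosses at 7.5 hpf they were admp −0.157 to 0.424 and chrd −0.253 to 0.482.

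gsc in hs:wnt8a against siblings at 7.5 hpf was −2.02 without pair 2 and −1.77 without pair 3, no longer past the threshold. The replicate block brought nog1 there past it (0.54). It also did so for admp in hs:wnt8a against siblings at 5.5 hpf (−0.82, adjusted p = 0.0246 by edgeR), for gsc in the 7.5 minus the 5.5 hpf effect of hs:wnt8a (−1.43, adjusted p = 0.02) and for admp in the difference between the 2 transgenes' effects at 5.5 hpf (−1.27, adjusted p = 0.00717), all of which use hs:wnt8a libraries of 5.5 hpf, whose numbers did not pair. The gsc difference between the hs:wnt8a and hs:dkk1b effects at 7.5 hpf was −2.07 without pair 1 of hs:dkk1b. admp between the times in siblings of hs:dkk1b lost its call with no low-count filter (−0.63), with only the groups compared (−0.62) and without pair 1 (−0.46), and ran from −1.03 to −0.447 with 1 library left out. chrd in siblings of hs:wnt8a lost it with only the groups compared (−0.76) and ran from −1.25 to −0.562. With 1 library left out, admp ran from −1.11 to −0.699 and chrd from −1.13 to −0.891 in hs:dkk1b embryos, and gsc from −1.16 to −0.906 in hs:wnt8a embryos. Values that came to pass between the times were chrd in siblings of hs:dkk1b with DESeq2 (−0.69), limma (−0.67), only the groups compared (−0.68), the block (−0.72) and without sibling library 2 at 7.5 hpf (−0.93), chrd in hs:wnt8a embryos without library 1 at 7.5 hpf (−0.90) and gsc in siblings of hs:wnt8a with limma (0.65). Between siblings of the crosses at 5.5 hpf nog1 came to pass with DESeq2 (0.49), without library 1 of hs:dkk1b (0.645) and without library 2 of hs:wnt8a (0.56).

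Counts of genes past the threshold moved more. For hs:dkk1b against siblings at 5.5 hpf (10) they were 26 with DESeq2, 0 with only the groups compared, 48 with the block, 1, 23 and 4 without pair 1, 2 or 3, and 5 to 25 with 1 library left out. At 7.5 hpf (30) they were 59, 146 with the block, 10, 12 and 12 without pair 1, 2 or 3, and 15 to 23. For hs:wnt8a against siblings at 5.5 hpf (0) they were 5 with DESeq2, 1 with limma and 113 with the block. At 7.5 hpf (19) they were 29 with DESeq2, 9 with only the groups compared, 75 with the block, 12, 9 and 5 without pair 1, 2 or 3, and 11 to 17. The change of effect with time had 1 with DESeq2 and 3 with the block for hs:dkk1b (0), and 4 with DESeq2, 2 with only the groups compared, 19 with the block and 0 to 2 with 1 left out for hs:wnt8a (1). Between the times, with 1 left out, counts were 3628 to 5699 in siblings of hs:dkk1b (6050), 3548 to 5789 in hs:dkk1b embryos (5869) and 4727 to 7345 in hs:wnt8a embryos (7718). Between siblings of the crosses at 5.5 hpf (1508) they were 466 with only the groups compared and 353 to 2134; at 7.5 hpf (345) they were 897 with DESeq2, 205 with no filter, 23 with only the groups compared, 216 without pair 1 of hs:dkk1b and 55 to 495. For the difference between the 2 transgenes' effects at 5.5 hpf (6) they were 28 with DESeq2, 10 with limma, 10 with no filter, 0 with only the groups compared, 125 with the block and 1 to 17. At 7.5 hpf (40) they were 75 with DESeq2, 247 with the block and 22 without pair 1 of hs:dkk1b. Besides the calls given above, the block changed no call of the 4 genes in a comparison of a transgene with its siblings. Depth limits gsc most, with 101 counts in its lowest library.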
